A study of Mus musculus with 6 samples.

Results

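The genes described here are the chemokines and chemokine receptors of mouse muscle, taken as every row of the count table whose symbol begins with Ccl, Cxcl, Cx3cl, Xcl, Ccr, Cxcr, Cx3cr or Xcr followed by a number. The rule found 63 rows among 49315. They carried 58 symbols, 40 of ligands and 18 of receptors, and the rule reads symbols only, though it was proposed with earlier results of these data known. Messenger RNA had been counted in whole gastrocnemius, a calf muscle, from C57BL6J males, mice of an inbred strain. Each muscle had received an injection of AAV9, a serotype of adeno-associated virus, at 5 months of age and was taken 5 months later. The AAV9-HSA-CAAHR virus (replicates 31, 34 and 36) carried a mouse aryl hydrocarbon receptor (AHR) that lacks its ligand binding domain and is active without a ligand. The AAV9-HSA-GFP virus (replicates 42, 43 and 46) carried a green fluorescent protein, which is foreign to the mouse. Both used the human skeletal actin (HSA, ACTA1) promoter, which is active in myofibres, so the delivered genes were under a myofibre promoter while RNA came from every cell of the muscle. Both groups received virus and uninjected muscle was not analysed here. These libraries alone therefore cannot assign a difference to a rise in one group or a fall in the other. The authors compared selected immune genes with muscle of mice given no virus by quantitative PCR. They reported no lower levels with AAV-CAAHR and read this as a local immune response to AAV-GFP. Their text does not name these genes. The labels do not say that each library came from a different mouse, and p-values measure the spread between these libraries.

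Chemokines are small secreted proteins that guide the movement of leukocytes. Their families are named by the spacing of the first cysteines (CC, CXC, CX3C and XC), and they act through membrane-spanning receptors that signal by inhibitory G proteins. In muscle, resident macrophages, endothelium, fibro-adipogenic cells and myofibres can release them after injury or infection, and the receptors are carried mostly by the leukocytes that arrive. Receptors of the Ackr group bind chemokines without this signalling and remove them.

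Library totals lay between 43432994 and 58825752 counts. Values are CPM, that is, counts put on a common library total, scaled with TMM (trimmed mean of M values), and fold changes are AAV9-HSA-CAAHR over AAV9-HSA-GFP on the log2 scale with their standard error (SE). Where a gene is given 2 runs of values without a group name, AAV9-HSA-CAAHR replicates 31, 34 and 36 come first and AAV9-HSA-GFP replicates 42, 43 and 46 follow. The edgeR quasi-likelihood test was used to compare the groups. A gene is called where its p, after Benjamini-Hochberg adjustment across the 15847 genes tested, was under 0.05. The delivered gene Ahr was at 9.97, 22.8 and 17.3 CPM in AAV9-HSA-CAAHR muscles and at 2.47, 2.55 and 1.87 CPM in AAV9-HSA-GFP muscles, so the libraries matched their labels. Counts of Ahr do not separate delivered from endogenous transcripts. The 4 myofibre markers summed to 96163 to 129816 CPM in AAV9-HSA-CAAHR and 151841 to 155927 CPM in AAV9-HSA-GFP, without overlap, and Ckm and Acta1 were called lower in AAV9-HSA-CAAHR. The list was mixed, since Myh4 (log2 fold change -0.31 ± 0.18) and Mb (1.03 ± 0.62) overlapped between groups and were not called. The part of the difference in these markers in the values below was not tested.

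AAV9-HSA-CAAHR muscles displayed lower levels of 11 chemokine and receptor genes and a higher level of 1. The lower genes were the neutrophil attractants Cxcl1 and Cxcl2, the interferon-inducible ligands Cxcl9 and Cxcl10, and the transmembrane ligand Cxcl16. They also included the monocyte attractants Ccl2 and Ccl7, the Ccr8 ligand Ccl8, the T cell attractant Ccl5, and the receptors Ccr7 and Cxcr4. The higher gene was Cxcl11. Log2 fold changes of the lower genes ran from -4.80 for Cxcl2 to -0.94 for Cxcr4, and 10 of the 11 were over 2-fold. Over all tested genes 397 of 724 calls of lower genes were over 2-fold. By family, 4 of 12 tested CC ligands and 5 of 9 CXC ligands were called lower, as were 1 of 4 CC receptors (Ccr7) and 1 of 3 CXC receptors (Cxcr4). Among all tested genes 4.57% were called lower. In bulk RNA, fewer cells of a type and less RNA per cell cannot be told apart.

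Of the 63 rows, 31 passed the filter on low counts (22 ligands and 9 receptors) and 32 did not. The 12 called genes were 38.7% of those tested, where 1205 of all 15847 tested genes (7.6%) were called. Calls of lower genes made up 4.57% of all tested genes and calls of higher genes 3.04%. In the background 60.1% of calls were lower with TMM scaling, 73.4% with upper quartile scaling and 40.7% with library size only. Among the chemokine and receptor genes the corresponding counts were 11 of 12, 14 of 15 and 11 of 12. The median log2 fold change was -1.75 over the 31 tested genes and 0.0086 over all tested genes. The AAV9-HSA-CAAHR libraries all lay below the AAV9-HSA-GFP libraries for 21 of the 31 and all above for 1, against 14.9% and 15% of all tested genes. The 31 are those with enough reads and not the whole set. A set of 7 genes, Ccl3, Ccl5, Ccl8, Ccr7, Cxcl2 and Xcr1 among them, had at least 10 counts in every AAV9-HSA-GFP library and fewer in every AAV9-HSA-CAAHR library, so they passed the filter through the group in which they were high. These 7 held 4 of the calls and the other 24 held 8. With a filter that ignores the groups (a mean of at least 10 counts) 11 of 29 were called, against 7.32% of all genes. That filter dropped Ccl3 and Ccr7 but kept Ccl5, Ccl8, Cxcl2 and Xcr1, whose reads lay mostly in AAV9-HSA-GFP. Cxcl2, for example, had 9 counts over AAV9-HSA-CAAHR and 221 over AAV9-HSA-GFP. The share of 11 of 29 is therefore not free of passage through the higher group. The count of 12 was 19 by DESeq2 at the same threshold (12.1% of all genes), 16 by DESeq2 with the study's added demand of a log2 fold change past 1 in size (4.74% of all genes), 10 by limma-voom (8.85% of all genes), 28 of 51 without a filter on low counts (8.62% of all genes) and 7 of 33 without CAAHR replicate 31 (4.21% of all genes).

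**Figure D1:**
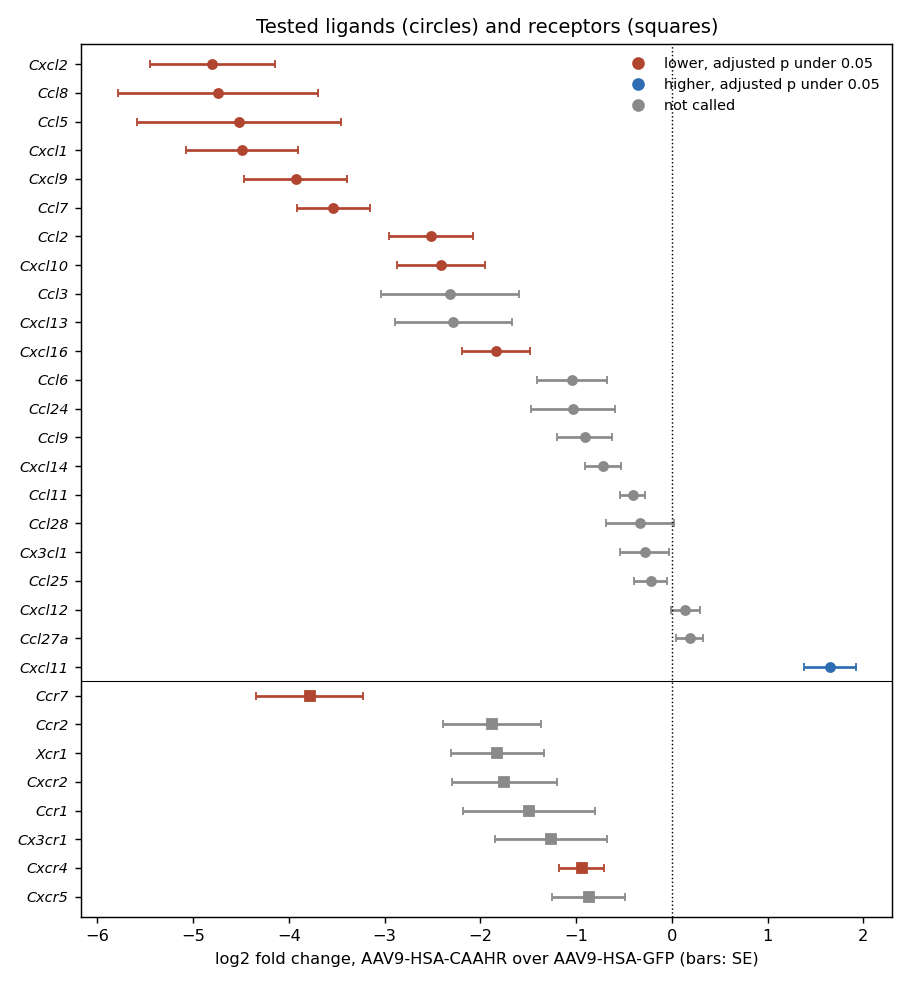
Log2 fold change with its SE (x axis) of the 22 tested ligands (circles) and 8 of the 9 tested receptors (squares), 3 libraries per group; red marks called lower genes, blue the called higher gene and grey those not called. Of the 30 points, 27 lie left of 0, and Cxcl11 at 1.65 is the only called gene to the right.

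Among the 9 tested CXC ligands, 5 were called lower and 1 higher in AAV9-HSA-CAAHR, against 4.57% and 3.04% of all tested genes. Cxcl1 and Cxcl2 encode the main mouse attractants of neutrophils, which carry their receptor Cxcr2, and the genes are neighbours within 14.7 kb on chromosome 5 (90891241 to 90905938, GRCm38). Cxcl9, Cxcl10 and Cxcl11 encode ligands of Cxcr3, a receptor of activated T and natural killer cells, and lie together in 44.1 kb of the same chromosome (92321347 to 92365485). The bases before the start of 4 of these genes are shown because transcription of chemokines in inflammation commonly depends on the factor NF-kB, whose binding sequence can be searched for in them. They are the 250 bases upstream of the RefSeq start, 5′ to 3′ on the gene's strand (GRCm38.p6), with capitals for letters that match the NF-kB consensus on either strand. Cxcl1 is chr5:90890995-90891244 on the plus strand, Cxcl2 is chr5:90903649-90903898 on the plus strand, Cxcl9 is chr5:92328080-92328329 on the minus strand and Cxcl10 is chr5:92348890-92349139 on the minus strand.
Cxcl1: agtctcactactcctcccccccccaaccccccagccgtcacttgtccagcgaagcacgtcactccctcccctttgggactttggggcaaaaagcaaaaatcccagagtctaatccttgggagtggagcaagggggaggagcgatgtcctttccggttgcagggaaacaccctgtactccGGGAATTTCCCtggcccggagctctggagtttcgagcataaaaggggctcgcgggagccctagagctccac
Cxcl2: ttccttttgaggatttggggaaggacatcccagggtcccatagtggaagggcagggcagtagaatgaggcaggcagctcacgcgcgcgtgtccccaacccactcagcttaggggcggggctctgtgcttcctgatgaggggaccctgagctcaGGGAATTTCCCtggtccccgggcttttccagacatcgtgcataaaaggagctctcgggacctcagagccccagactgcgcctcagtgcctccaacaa
Cxcl9: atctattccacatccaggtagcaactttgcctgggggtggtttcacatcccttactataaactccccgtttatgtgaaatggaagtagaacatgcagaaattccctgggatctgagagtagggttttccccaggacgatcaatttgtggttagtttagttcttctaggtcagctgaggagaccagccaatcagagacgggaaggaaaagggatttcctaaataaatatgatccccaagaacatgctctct
Cxcl10: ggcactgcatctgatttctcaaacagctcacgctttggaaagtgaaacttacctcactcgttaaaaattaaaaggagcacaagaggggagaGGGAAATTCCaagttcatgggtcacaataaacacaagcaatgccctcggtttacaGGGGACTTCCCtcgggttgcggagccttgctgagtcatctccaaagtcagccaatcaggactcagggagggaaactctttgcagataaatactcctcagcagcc

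The Cxcl1 and Cxcl2 sequences held the same 11 letters, GGGAATTTCCC, beginning 71 and 97 bases before the start. Cxcl10 held GGGAAATTCC, beginning at 159 bases, and GGGGACTTCCC, beginning at 104 bases, while Cxcl9 held no match in this window. The RefSeq table gave windows (250 bases before to 50 after a start) for 41 of the 58 symbols and for 6 of the 12 called genes, which besides these 4 were Ccl8 and Cxcr4. A match to the NF-kB consensus was present in 3 of the 6 and in 11 of 48 windows of chemokine and receptor genes, where 8.46% of all 32851 windows held one. The core AHR response element, GCGTG on either strand, was in 3 of the 6 (Cxcl2, Cxcl10 and Cxcr4) and in 21 of the 48 windows, against 32.4% of all windows. A match says only that these letters are present.

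Cxcl1 (ENSMUSG00000029380, chromosome 5, 90891241 to 90893115, plus strand) was at 0.0791, 0.385 and 0.410 CPM in the AAV9-HSA-CAAHR muscles and at 3.27, 7.74 and 9.21 CPM in the AAV9-HSA-GFP muscles. All values in the first group were below 1 CPM and all in the second above 3, and replicate 42 was the lowest of its group. The log2 fold change was -4.49 ± 0.58 (SE), a 22.4-fold lower level, with an edgeR adjusted p of 0.00705. Cxcl2 (ENSMUSG00000058427, chromosome 5, 90903871 to 90905938, plus strand) was at 0, 0.0525 and 0.0984 CPM in AAV9-HSA-CAAHR and at 0.808, 1.66 and 2.13 CPM in AAV9-HSA-GFP. CAAHR replicate 31 had no Cxcl2 read, and the order of the AAV9-HSA-GFP libraries was that of Cxcl1. Its log2 fold change was -4.80 ± 0.66, the most negative of the 31 tested chemokine and receptor genes, with an edgeR adjusted p of 0.00363, and it was -5.68 without CAAHR replicate 36. Cxcl3, another ligand of this kind, had 0 counts in AAV9-HSA-CAAHR and 0, 2 and 3 counts in AAV9-HSA-GFP, and Cxcl5 had none in any library, which allows up to 3 counts over a group.

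Cxcr2, the receptor of these ligands, was at 0.277, 0.0700 and 0.246 CPM and 0.352, 0.601 and 1.04 CPM. The groups did not overlap, but the smallest distance between them was from 0.277 to 0.352 CPM. With a log2 fold change of -1.75 ± 0.55 and an edgeR adjusted p of 0.0858 it was not called, although it was called by DESeq2 (0.0408) and by edgeR without a filter on low counts (0.00327). Neutrophil markers were also lower: S100a8, S100a9, Csf3r and Retnlg were called, 4 of the 4 tested, and their list of 5 summed to 2.20 to 3.03 CPM in AAV9-HSA-CAAHR and 6.69 to 15.9 CPM in AAV9-HSA-GFP. The fifth, Ly6g, was at 0 in CAAHR replicates 31 and 36 and at no more than 0.0566 CPM elsewhere. The part of these cells in the ligand and receptor values was not tested.

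Cxcl9 (ENSMUSG00000029417, chromosome 5, 92321347 to 92328079, minus strand) was at 0.138, 0.263 and 0.197 CPM in AAV9-HSA-CAAHR and 2.01, 5.53 and 1.77 CPM in AAV9-HSA-GFP. Replicate 43 stood above the rest of the AAV9-HSA-GFP group, and the groups were still separated by more than 1 CPM. Cxcl9 had a log2 fold change of -3.93 ± 0.54 and an edgeR adjusted p of 0.00477, and without GFP replicate 43 the log2 fold change was -3.22. Cxcl10 (ENSMUSG00000034855, chromosome 5, 92346638 to 92348889, minus strand) was at 0.178, 0.525 and 0.148 CPM against 1.43, 1.95 and 1.19 CPM, and here CAAHR replicate 34 was the highest of its group. Its log2 fold change was -2.41 ± 0.46, with an edgeR adjusted p of 0.0149 that became 0.0619 without CAAHR replicate 31. Without CAAHR replicate 34 the log2 fold change was -3.21.

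Cxcl11 (ENSMUSG00000060183, chromosome 5, 92359544 to 92365485, minus strand) was higher in AAV9-HSA-CAAHR. Its level was 1.36, 1.28 and 1.79 CPM in AAV9-HSA-CAAHR and 0.539, 0.457 and 0.415 CPM in AAV9-HSA-GFP. Each AAV9-HSA-CAAHR library was above each AAV9-HSA-GFP library, and the spread within a group was small beside the distance between them. The log2 fold change was 1.65 ± 0.27, a 3.14-fold higher level, with an edgeR adjusted p of 0.00731, and Cxcl11 was called in all 14 alternative fits. As background, C57BL/6 mice carry a frameshift in Cxcl11 and are held to lack the functional protein. Cxcl11 lies on the opposite strand within the span of Art3 and shares no exon bases with it, and Art3 was called lower, at 93.9, 103 and 94.0 CPM in AAV9-HSA-CAAHR and 152, 173 and 147 CPM in AAV9-HSA-GFP (log2 fold change -0.70 ± 0.10, edgeR adjusted p = 0.0041). Of the Cxcl11 exon bases, 41.7% lie opposite the pseudogene Gm2673, which had between 0 and 4 counts. Cxcl10 shares 5.9% of its exon bases with Art3, also on the opposite strand. Whether the libraries kept strand is not stated, so reads from opposite strands cannot be told apart in the shared bases.

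Cxcr3, the common receptor of these ligands, did not pass the filter. It had 0, 2 and 2 counts in the AAV9-HSA-CAAHR libraries and 7, 25 and 5 counts in the AAV9-HSA-GFP libraries. As for Cxcl9 and Cxcl10, and unlike Cxcl11, every AAV9-HSA-CAAHR value was below every AAV9-HSA-GFP value. T and natural killer cell markers were sparse too. Of the 7 on the list 2 were tested and neither was called, and the list summed to 1.001 to 1.65 CPM in AAV9-HSA-CAAHR and 2.28 to 8.29 CPM in AAV9-HSA-GFP. Most of the AAV9-HSA-CAAHR sum was Cd3e, at 1.15, 1.45 and 0.837 CPM against 1.37, 2.28 and 0.963 CPM (log2 fold change -0.42 ± 0.35, edgeR adjusted p = 0.516), which overlapped between groups, as did Gzma. The other 5 did not overlap. Of these, Cd3d was below 0.02 CPM in every AAV9-HSA-CAAHR library, and Cd3g and Nkg7 were at 0 in replicates 31 and 36. The part of these cells was not tested.

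Cxcl16 (ENSMUSG00000018920, chromosome 11, 70453983 to 70459984, minus strand) encodes a membrane-bound ligand of Cxcr6 that is shed from macrophages and endothelium. Its level was 0.554, 0.473 and 0.738 CPM in AAV9-HSA-CAAHR and 1.55, 3.24 and 1.57 CPM in AAV9-HSA-GFP. Replicates 42 and 46 were nearly equal and replicate 43 was higher. Cxcl16 had a log2 fold change of -1.84 ± 0.35 and an edgeR adjusted p of 0.0143 that became 0.0615 without CAAHR replicate 31. A share of 18.3% of its exon bases is shared with Zmynd15 on the opposite strand, a gene with at most 26 counts. Cxcr6 had few reads, with 3, 2 and 7 counts and 3, 6 and 5 counts.

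**Figure D2:**
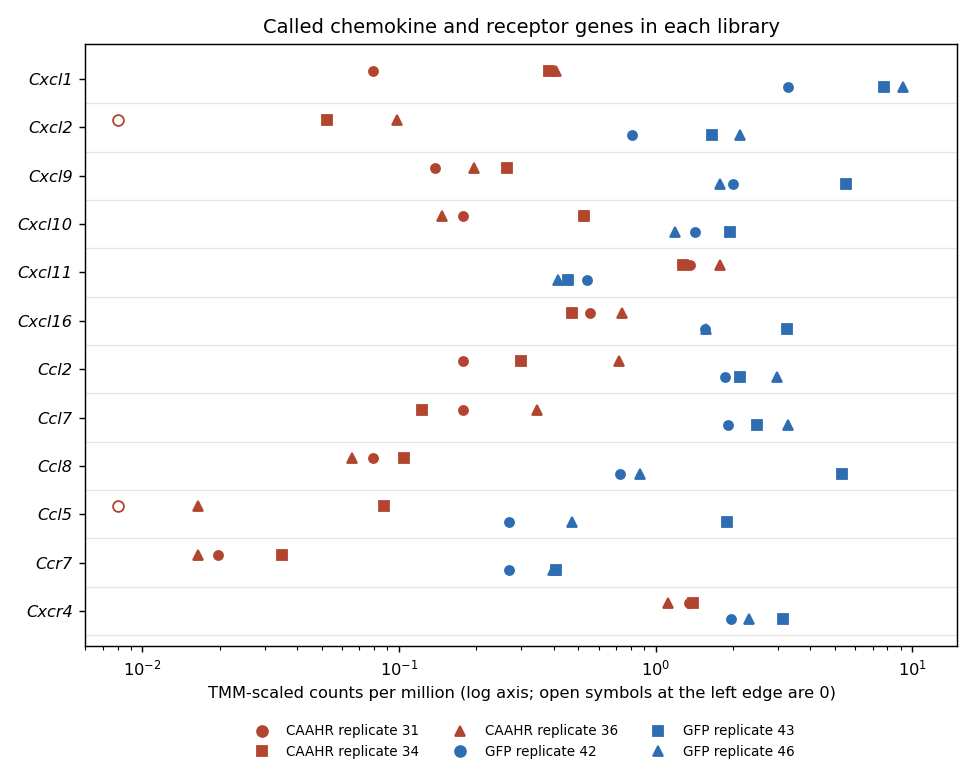
TMM-scaled CPM (log axis) of the 12 called genes in each of the 6 libraries; red symbols are AAV9-HSA-CAAHR, blue are AAV9-HSA-GFP, symbol shape gives the replicate, and open symbols at the left edge are values of 0. The groups do not overlap for any of the 12, and Cxcl11 is the only gene with red symbols to the right of blue.

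The monocyte attractants Ccl2 and Ccl7 lie with Ccl8, Ccl11 and Ccl12 in 81.2 kb of chromosome 11 (82035571 to 82116799). Ccl7 (ENSMUSG00000035373, chromosome 11, 82045712 to 82047525, plus strand), which binds Ccr1, Ccr2 and Ccr3, was at 0.178, 0.123 and 0.344 CPM in AAV9-HSA-CAAHR and 1.91, 2.48 and 3.27 CPM in AAV9-HSA-GFP. It had the smallest p-value of the tested chemokine and receptor genes, with a log2 fold change of -3.54 ± 0.38 (11.6-fold lower) and an edgeR adjusted p of 0.00102. Ccl2 (ENSMUSG00000035385, chromosome 11, 82035571 to 82037453, plus strand), the principal ligand of Ccr2, was at 0.178, 0.298 and 0.722 CPM against 1.87, 2.14 and 2.98 CPM. CAAHR replicate 36 held the highest value of its group for Ccl2 and Ccl7. The log2 fold change of Ccl2 was -2.52 ± 0.44, with an edgeR adjusted p of 0.0118 that became 0.0529 without GFP replicate 46. Without CAAHR replicate 36 the log2 fold change was -3.28.

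Ccl8 (ENSMUSG00000009185, chromosome 11, 82115185 to 82116799, plus strand), a ligand of Ccr8 in the mouse, was at 0.0791, 0.105 and 0.0656 CPM in AAV9-HSA-CAAHR and 0.725, 5.31 and 0.869 CPM in AAV9-HSA-GFP. Most of the mean of the second group came from replicate 43, and the SD of that group (2.61 CPM) was larger than its mean (2.30 CPM). Ccl8 had a log2 fold change of -4.74 ± 1.05 and an edgeR adjusted p of 0.0465. This call was not kept without CAAHR replicates 31, 34 or 36 (adjusted p of 0.14, 0.137 and 0.197), without a filter on low counts (0.136) or by limma-voom (0.225), where the log2 fold change lay between -4.94 and -4.32. Without GFP replicate 43 it was -3.23, with an adjusted p of 0.00491. Ccl12, a further Ccr2 ligand, was not tested and had 4, 4 and 4 counts against 9, 15 and 17 counts. Ccl11 (eotaxin), an eosinophil attractant, had the highest level per length of the cluster. Its level was 9.57, 9.92 and 11.5 CPM against 12.7, 12.4 and 16.0 CPM, a log2 fold change of -0.41 ± 0.13 with an edgeR adjusted p of 0.0932, and it was not called.

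Ccr2, the receptor by which inflammatory monocytes follow Ccl2 and Ccl7, was at 0.712, 0.805 and 0.558 CPM and 1.70, 4.78 and 1.23 CPM. Each AAV9-HSA-GFP library was above each AAV9-HSA-CAAHR library, and replicate 43 was well above the others. Ccr2 had a log2 fold change of -1.88 ± 0.51 and an edgeR adjusted p of 0.0654, and was not called. It was called by DESeq2 (adjusted p of 0.000793) and by edgeR without a filter on low counts (5.66e-09) or without GFP replicate 46 (0.0401). Macrophage markers gave no call among 6 (Cd68, Adgre1, Csf1r, C1qa, Mrc1 and Lyz2), with a median log2 fold change of -1.15 and sums of 17.9 to 31.4 CPM in AAV9-HSA-CAAHR and 39.6 to 85.4 CPM in AAV9-HSA-GFP. All 6 were detected in every library, and their part in the values of Ccr2 and its ligands was not tested. Ccr8 had 0 counts in AAV9-HSA-CAAHR and 3, 8 and 3 counts in AAV9-HSA-GFP. It was 5.51-fold lower when a floor of 3 counts over the group was put in for AAV9-HSA-CAAHR. The counting error of the AAV9-HSA-GFP counts is not in this value. Ccr3, the receptor of Ccl11, had 0 counts in all 6 libraries.

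Ccl5, Ccl9, Ccl6, Ccl3 and Ccl4 form a further group on chromosome 11 (83525778 to 83664683, 139 kb). Ccl5 (ENSMUSG00000035042, chromosome 11, 83525778 to 83530518, minus strand), which is made by T cells and acts on Ccr1 and Ccr3 among others, was at 0, 0.0875 and 0.0164 CPM in AAV9-HSA-CAAHR and 0.269, 1.90 and 0.472 CPM in AAV9-HSA-GFP. Replicate 43 was again the highest, and CAAHR replicate 31 had no read. Ccl5 had a log2 fold change of -4.52 ± 1.06 and an edgeR adjusted p of 0.0435. The call was lost without CAAHR replicates 31 or 36 (adjusted p of 0.115 and 0.167), without GFP replicates 43 or 46 (0.0613 and 0.0763) and by limma-voom (0.0814). The log2 fold change ran from -6.26 without CAAHR replicate 34 to -3.31 without GFP replicate 43. Ccl3, a macrophage product, was at 0.0198, 0.0175 and 0.148 CPM and 0.228, 0.240 and 0.510 CPM and was not called (log2 fold change -2.32 ± 0.72, edgeR adjusted p = 0.0833). Ccl4 had 0 counts in AAV9-HSA-CAAHR and 6, 9 and 6 counts in AAV9-HSA-GFP, 8.27-fold lower with the same floor put in for AAV9-HSA-CAAHR, and was not tested. Ccl6 and Ccl9, which are made by myeloid cells and found in rodents, were at 2.46 ± 0.881 against 5.09 ± 2.26 CPM and 1.54 ± 0.0895 against 2.90 ± 1.21 CPM (SD, n = 3), and neither was called.

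Ccr1, a receptor of Ccl3, Ccl5, Ccl6 and Ccl9, was at 0.356, 0.175 and 0.0492 CPM and 0.187, 0.625 and 0.793 CPM, and the groups overlapped (log2 fold change -1.49 ± 0.69, edgeR adjusted p = 0.23).

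Ccr7 (ENSMUSG00000037944, chromosome 11, 99144196 to 99155077, minus strand) directs dendritic cells and T cells towards lymph nodes along Ccl19 and Ccl21. Its level was 0.0198, 0.0350 and 0.0164 CPM in AAV9-HSA-CAAHR and 0.269, 0.409 and 0.397 CPM in AAV9-HSA-GFP, from 1, 2 and 1 counts and 13, 17 and 21 counts. The AAV9-HSA-GFP libraries lay close together. Ccr7 had a log2 fold change of -3.78 ± 0.56 and an edgeR adjusted p of 0.0041, and Ccr7 was called in all 12 alternative fits that gave it an adjusted p. The filter on a mean of at least 10 counts removed Ccr7, and DESeq2 gave it no adjusted p, so those fits gave no call. The ligands of Ccr7 did not pass the filter of the main fit. Ccl19 had 3, 1 and 0 counts and 1, 0 and 0 counts, and Ccl21a had none. The symbols Ccl19, Ccl21a, Ccl21b and Ccl27 each occur in more than 1 row and take up 9 of the 63 rows. They have near-identical copies, and since reads were counted where they mapped to 1 place their values are uncertain. Ccl21c, Ccl27a and Ccl27b, of the same families, are not in this count.

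Xcr1, which marks cross-presenting dendritic cells, was at 0.138, 0.140 and 0.0820 CPM and 0.269, 0.649 and 0.378 CPM, without overlap. It was the nearest to the threshold among the genes not called (log2 fold change -1.82 ± 0.48, edgeR adjusted p = 0.0504), and its ligand Xcl1 had no more than 1 count in any library. Of the dendritic cell markers, Itgax was called lower and Zbtb46 and Clec9a were not, and the list of 4 summed to 6.06 to 8.11 CPM and 7.91 to 10.6 CPM. The part of these cells was not tested.

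Cxcl13, the B cell attractant of lymphoid follicles, was at 0.336, 0.123 and 0.197 CPM and 0.705, 2.02 and 0.491 CPM. The groups did not overlap, but it was not called (log2 fold change -2.28 ± 0.61, edgeR adjusted p = 0.0554). Its receptor Cxcr5 was at 0.494, 0.683 and 0.722 CPM and 1.08, 0.625 and 1.76 CPM, with overlap, and was not called (edgeR adjusted p = 0.202). Cxcr5 shares 3.3% of its exon bases with Bcl9l on the opposite strand, a gene with 1378 to 2144 counts. Reads in the shared bases cannot be told apart. B cell markers were highest in replicate 43. The list of 5 summed to 0.831 to 1.20 CPM in AAV9-HSA-CAAHR and to 5.01, 35.7 and 9.82 CPM in AAV9-HSA-GFP replicates 42, 43 and 46. Cd79a and Cd79b were called lower, none of the 5 was at 0, and their part was not tested. The follicle markers Cr2 and Fcer2a did not exceed 0.178 CPM in any library and Madcam1 was at 0.

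Cxcr4 (ENSMUSG00000045382, chromosome 1, 128588199 to 128592293, minus strand) is the receptor of Cxcl12, the ligand that holds leukocytes and stem cells in place. It was at 1.34, 1.40 and 1.12 CPM in AAV9-HSA-CAAHR and 1.97, 3.15 and 2.30 CPM in AAV9-HSA-GFP. Groups were separate, with 1.40 CPM the highest value in the first and 1.97 CPM the lowest in the second. The log2 fold change was -0.94 ± 0.23, with an edgeR adjusted p of 0.0413, and this was the smallest change among the called genes. The call was not kept without CAAHR replicates 31 or 36 (adjusted p of 0.096 and 0.137) or GFP replicates 43 or 46 (0.146 and 0.0969). Cxcl12 itself was at 77.6, 51.3 and 72.5 CPM and 62.0, 54.2 and 66.3 CPM, with overlap, a log2 fold change of 0.14 ± 0.15 and an edgeR adjusted p of 0.642. Ackr3, a receptor that removes Cxcl12, was called lower, at 14.0, 11.9 and 13.4 CPM in AAV9-HSA-CAAHR and 19.7, 20.4 and 21.2 CPM in AAV9-HSA-GFP (log2 fold change -0.64 ± 0.10, edgeR adjusted p = 0.00592).

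Levels of different genes were compared per length. As RPKM, the CPM divided by the exon length in kilobases, Cxcl14 was highest in AAV9-HSA-GFP muscles at 24.7 ± 5.89 (SD, n = 3), followed by Ccl11 at 12.7 ± 1.84 and Cxcl12 at 7.44 ± 0.747. The next was Ccl8 at 4.50 ± 5.10, whose spread covered the values of Cxcl1 (3.60 ± 1.65) and Ccl7 (3.18 ± 0.853), so the order of these 3 is not resolved. In AAV9-HSA-CAAHR muscles the same 3 ligands led, with Cxcl14 at 15.03 ± 2.39, Ccl11 at 9.54 ± 0.941 and Cxcl12 at 8.21 ± 1.71, while Cxcl1 was at 0.155 ± 0.0983 and Ccl8 at 0.163 ± 0.0392. Cxcl11, at 0.124 ± 0.0166 RPKM in AAV9-HSA-GFP and 0.389 ± 0.0720 in AAV9-HSA-CAAHR, was below Cxcl9 (1.03 ± 0.697) in the first group and above it (0.0661 ± 0.0206) in the second. Cxcr4 had the highest RPKM of the tested receptors in both groups.

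Cxcl14, a ligand of stromal and epithelial tissue, was at 24.0, 26.0 and 32.4 CPM and 32.8, 49.99 and 52.6 CPM, without overlap between the groups and with an edgeR adjusted p of 0.058. Summed over Cxcl12, Cxcl14 and Ccl11, the level was 111, 87.2 and 116 CPM in AAV9-HSA-CAAHR and 108, 117 and 135 CPM in AAV9-HSA-GFP, which overlapped. The other 42 ligand rows summed to 19.1, 18.7 and 21.2 CPM and to 33.3, 58.5 and 47.0 CPM, and the 18 receptors to 4.23, 3.94 and 3.64 CPM and to 6.90, 14.9 and 9.38 CPM. Neither sum overlapped between groups. Markers of fibro-adipogenic cells (4 genes, median log2 fold change -0.04), blood endothelium (4 genes, median 0.10) and lymphatic endothelium (4 genes, median -0.16) gave no call.

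A further set of ligands was not called and had overlapping groups. Ccl27a, a skin ligand of Ccr10, was at 6.01 ± 0.584 against 5.28 ± 0.505 CPM (SD, n = 3). Ccl25, the ligand of Ccr9, was at 2.82 ± 0.468 against 3.30 ± 0.0641 CPM, and Ccl28, a mucosal ligand of Ccr10, at 0.656 ± 0.162 against 0.824 ± 0.299 CPM. Ccl25 shares 2.7% of its exon bases with Elavl1 on the opposite strand, a gene with 1009 to 1440 counts. Cx3cl1 (fractalkine), a membrane-bound ligand of endothelium, was at 1.54 ± 0.243 against 1.87 ± 0.507 CPM, and its receptor Cx3cr1, carried by resident macrophages, at 0.239 ± 0.131 against 0.583 ± 0.392 CPM. Cx3cr1 values did not overlap between groups, but its edgeR adjusted p was 0.23. Ccl24, an eosinophil attractant made by macrophages, was at 0.561 ± 0.136 against 1.15 ± 0.699 CPM (edgeR adjusted p = 0.187). The log2 fold changes of these genes were 0.19 for Ccl27a, -0.22 for Ccl25, -0.33 for Ccl28, -0.28 for Cx3cl1, -1.26 for Cx3cr1 and -1.03 for Ccl24.

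Of the 19 tested genes that were not called, 17 had a negative log2 fold change, 12 had an unadjusted p under 0.05 and 10 had every AAV9-HSA-CAAHR library below every AAV9-HSA-GFP library. Over all 14642 tested genes that were not called the shares were 47.9%, 17.6% and 11.1%. Of the 32 rows that were not tested, 22 had no more than 3 counts in any library and 12 of them had 0 in all. Of the 10 with more, Ccl17, Ccr4, Ccr9, Ccr10 and Cxcr6 had overlapping groups, while Ccl12, Ccl22, Ccl4, Ccr8 and Cxcr3 had AAV9-HSA-CAAHR libraries all below the AAV9-HSA-GFP libraries, as did 10.6% of all 5398 untested genes with more than 3 counts in any library. Ccl22, a dendritic cell product that attracts regulatory T cells through Ccr4, had 3, 2 and 0 counts and 17, 18 and 8 counts. Ccl12, Ccl22, Ccl4, Ccr8 and Cxcr3 were called in the fit without a filter on low counts, where 8.62% of all genes were.

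Ligands were set beside their receptors in 34 known pairs of 31 ligands and 16 receptors. In 12 pairs both genes were tested, and in 11 of these both log2 fold changes were negative. The exception was Cxcl12 with Cxcr4, the only pair with a called receptor and a tested ligand that was not called. Of the 31 tested genes 28 had a negative log2 fold change, as had all 9 tested receptors. The count of 11 follows from those shares and says nothing about pairing. No pair had both genes called. In 6 pairs the ligand was called lower and the receptor was tested without a call (Ccl5 and Ccl7 with Ccr1, Ccl2 and Ccl7 with Ccr2, and Cxcl1 and Cxcl2 with Cxcr2). In 6 pairs the ligand was called lower and the receptor was not tested (Ccl5 and Ccl7 with Ccr3, Ccl8 with Ccr8, Cxcl9 and Cxcl10 with Cxcr3, and Cxcl16 with Cxcr6). Cxcl11 was the 1 ligand called higher, and its receptor Cxcr3 was not tested. In 2 pairs the receptor Ccr7 was called lower and the ligand (Ccl19 or Ccl21a) was not tested. Receptors occur in several pairs, so the pairs are not independent.

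**Figure D3:**
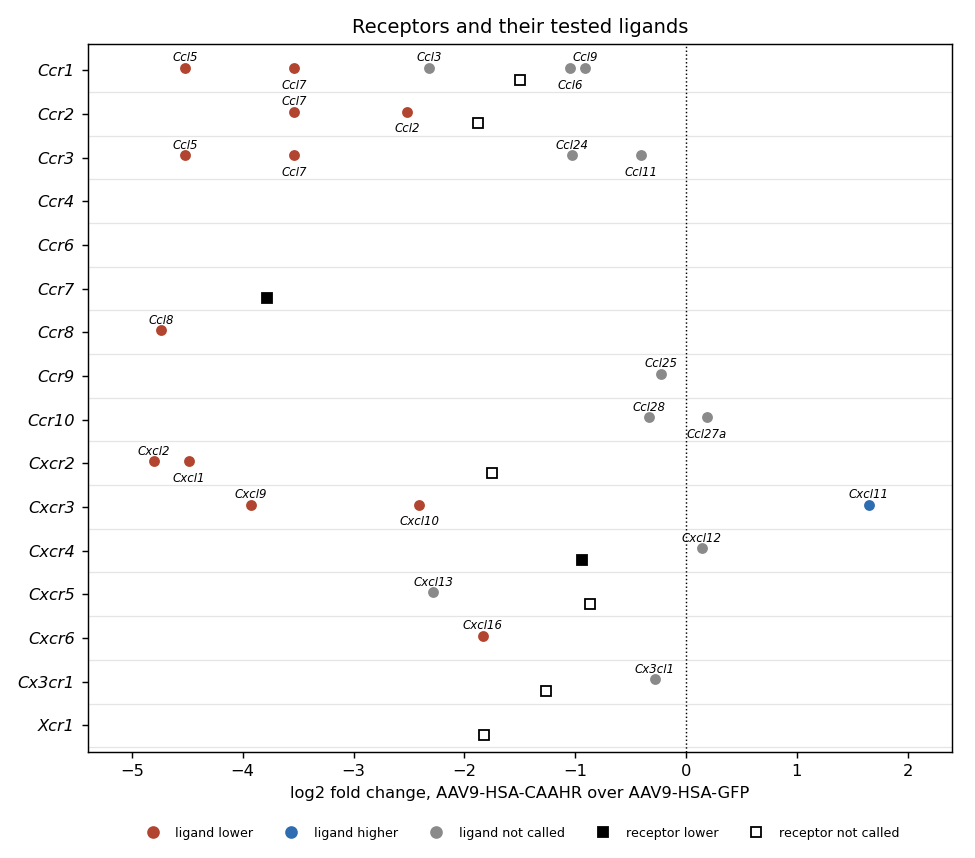
Log2 fold changes (x axis) of tested ligands (circles, named) and tested receptors (squares), 1 line for each of the 16 receptors in the pairs. Filled squares are called receptors (Ccr7 and Cxcr4) and open squares are tested receptors that were not called. Cxcr3 carries ligands on both sides of 0, with Cxcl9 at -3.93 and Cxcl11 at 1.65.

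The lower genes did not peak in the same AAV9-HSA-GFP library. Among the 21 tested genes whose groups did not overlap in the lower direction, 13 were highest in replicate 43, among them Ccl8, Cxcl13, Ccl5, Ccr2, Cx3cr1, Cxcl9, Cxcl16, Xcr1, Ccl9, Cxcl10, Cxcr4 and Ccr7. The other 8, Cxcl14, Cxcl1, Cxcl2, Ccl11, Ccl7, Ccl2, Cxcr2 and Ccl3, were highest in replicate 46. The level in replicate 43 was 6.12 times that in replicate 46 for Ccl8 and 0.471 times for Ccl3. For the neutrophil receptor Cxcr2 it was 0.579 times and for the monocyte receptor Ccr2 3.90 times. Markers differed between the same libraries. The leukocyte list (Ptprc, Cd52, Coro1a and Laptm5, 4 of 4 called lower) summed to 11.8, 34.4 and 18.8 CPM in AAV9-HSA-GFP replicates 42, 43 and 46 and to 4.95 to 5.61 CPM in AAV9-HSA-CAAHR. Macrophage markers summed to 39.6, 85.4 and 54.7 CPM and neutrophil markers to 6.69, 9.21 and 15.9 CPM in the AAV9-HSA-GFP replicates. These are values of 3 libraries, and the part of the cell types in them was not tested.

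**Figure D4:**
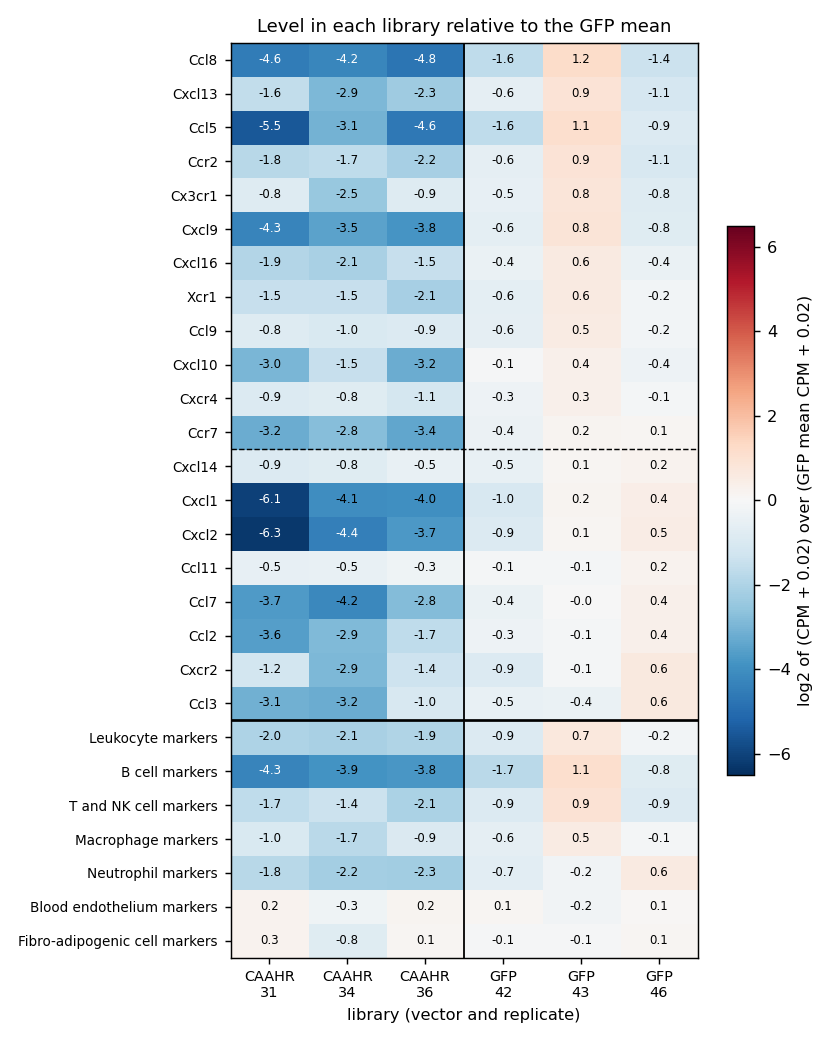
Colour and number give the log2 level in each library relative to the AAV9-HSA-GFP mean (0.02 CPM added to both) for 20 of the 21 lower genes without overlap, above the solid line, and for summed marker lists below it; the dashed line parts genes highest in GFP replicate 43 from those highest in replicate 46. AAV9-HSA-CAAHR columns are blue for every gene because the genes were chosen for being lower there in every library. Blood endothelium and fibro-adipogenic markers lie between -0.79 and 0.25, and Ccl11 in AAV9-HSA-CAAHR (-0.52 to -0.26) lies within that span.

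Genes that act around the chemokines were read from lists. Of the 5 atypical receptors, Ackr3 and Ccrl2 were called lower and none higher. Ccrl2, which presents the attractant chemerin to leukocytes, was at 3.01, 4.67 and 4.30 CPM in AAV9-HSA-CAAHR and 9.80, 7.35 and 7.70 CPM in AAV9-HSA-GFP (log2 fold change -1.05 ± 0.19, edgeR adjusted p = 0.0111). The platelet chemokines Pf4 and Ppbp, whose symbols the rule does not cover, were not called. Of 20 genes of receptor signalling 19 were tested, and 3 were called lower and none higher, where 7.6% of all tested genes were called. They were the small GTPase gene Rac2 (-2.65 ± 0.38), its exchange factor Vav1 (-1.89 ± 0.48) and the kinase subunit gene Pik3cg (-1.86 ± 0.35). The 16 that were not called included Dock2 (-1.77 ± 0.48), Pik3r5 (-1.22 ± 0.34), Was (-1.27 ± 0.38) and Plcb2 (-1.74 ± 0.61), as well as Gnai2 (-0.13 ± 0.11), Rac1 (-0.16 ± 0.11) and Grk2 (0.01 ± 0.09). These values are log2 fold changes with SE.

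Of 8 cytokines that induce chemokines, 4 were tested and 2 were called lower. Il6 was at 0.0593, 0.123 and 0.131 CPM in AAV9-HSA-CAAHR and 0.870, 1.30 and 1.38 CPM in AAV9-HSA-GFP (log2 fold change -3.45 ± 0.40, edgeR adjusted p = 0.00134). Il1b, an inflammatory cytokine of myeloid cells, was at 0.257, 0.350 and 0.344 CPM and 1.10, 2.57 and 4.19 CPM (log2 fold change -3.03 ± 0.48, edgeR adjusted p = 0.00851). The order of Il1b among the AAV9-HSA-GFP libraries was that of Cxcl1 and Cxcl2, but also that of Il6, Ccl2, Ccl7, S100a8 and S100a9. Interferon gamma (Ifng), the inducer of Cxcl9, Cxcl10 and Cxcl11, was not tested and was at 0, 0 and 0 CPM and 0.0414, 0.144 and 0.0189 CPM. Among 10 transcription factors of these responses, Relb (-0.66 ± 0.12) and Irf1 (-1.22 ± 0.25) were called lower and none higher. The NF-kB subunit genes Nfkb1 (-0.09 ± 0.11) and Rela (0.08 ± 0.09) were not called. Across the 5 lists 9 of 40 tested genes were called, all of them lower, against 4.57% of all tested genes.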

How the data were processed

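Poly(A)-selected RNA of the gastrocnemius muscle was sequenced from both fragment ends. As the authors describe, reads were trimmed with Trimmomatic 0.36, aligned to GRCm38 with STAR 2.5.2b, and reads mapped to 1 place were summed over exons by gene with featureCounts. The deposited values were raw counts per gene, not normalised and not pooled by the authors. No per-sample column was left unused (0), and the 174 rows without a symbol (0.0154% of counts) were kept. Positions and exon lengths came from GENCODE release 21 of the mouse, in which 99.47% of rows were found, and promoter windows from RefSeq.

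Libraries were assigned to groups by their titles. The analysis used edgeR 4.0.16 in R 4.3.3 (filterByExpr, TMM scaling, robust quasi-likelihood F test, Benjamini-Hochberg adjustment over all tested genes, threshold 0.05). The SE was taken from the F statistic. RPKM used the length of merged exons. The authors' own test was the DESeq2 Wald test, with calls that also needed a log2 fold change past 1 in size. It was run here (DESeq2 1.42.0) as an alternative by adjusted p alone and, chosen after seeing the data, with that fold threshold, beside limma-voom with sample weights (limma 3.58.1), other scalings and filters, and leaving out each library. No library was a repeat of another, since the chi-square of each pair within a group was at least 23.7 times its degrees of freedom. Floors of 3 counts cover counting error only, and only for the group with 0 counts. Counts of the other group were taken as they stood. The code was tested on simulated counts.

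The chemokine and receptor genes, the ligand and receptor pairs and the lists of markers and pathway genes were chosen with earlier results of these data known. Full values are given for every called gene and for the receptors and ligands paired with it. Other genes are given by level. Some items are in the counts over all genes and lists but are not reported here, and they were left out of the pairs and plots. Chemokine protein sequences were not analysed here.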

Additional observations from a re-analysis of the deposited data

How the results depend on the processing

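Without a filter on low counts, 28 chemokine and receptor genes were called (27 lower), with 2470 of all genes, 20 pathway genes and 25 marker genes. The DESeq2 Wald test gave 19 (18 lower), 1923, 14 and 21. The corresponding counts above were 12 (11 lower), 1205, 9 and 13, and 11 of the 12 called genes were shared with each of these fits. With the added fold threshold of the study, an alternative chosen after seeing the data, DESeq2 called 16 chemokine and receptor genes (15 lower) and 751 of all genes. With limma-voom the count of marker genes was 7. Leaving out 1 library at a time gave 7 to 15 chemokine and receptor genes (6 to 14 lower), 530 to 1727 of all genes and 4 to 18 marker genes. The lowest count of chemokine and receptor genes was without CAAHR replicate 31 and the highest without GFP replicate 42. In every fit Cxcl11 was the only chemokine or receptor gene called higher. Other scalings gave 12 to 15 calls. Cxcl1, Cxcl2, Cxcl9, Cxcl11 and Ccl7 were called in all 14 alternative fits. Of 429 comparisons of a single gene with its value under an alternative, 380 stayed on the same side of the threshold, 17 lost the call, 32 gained one and 0 changed direction. The cause of these shifts was not tested. No paired analysis was possible because no replicate number occurs in both groups. With 3 libraries a group, an exact permutation test could not go below 0.1, and genes of a few counts could not be resolved at this depth.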
